A study of Mus musculus with 22 samples.

Results

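The CC chemokines are a family of small secreted proteins that attract leukocytes, and 9 of their genes, Ccl2, Ccl3, Ccl4, Ccl5, Ccl6, Ccl7, Ccl8, Ccl9 and Ccl11, were followed across 4 groups of mouse subcutaneous tissue. They were chosen by name from the 12393 genes that had a probe of their own on the array. Together they had 11 probes. Ccl6 and Ccl9 each had a second one, and the brighter probe, by its mean across the 22 arrays, stood for the gene. The tissue was loose connective tissue lying under the trunk skin, taken from C57BL/6 males with body weights of 19 to 24 g. The groups were tissue stretched ex vivo (4 animals), tissue shortened ex vivo (the same 4), tissue stretched in vivo (7 animals) and tissue shortened in vivo (the same 7). Each animal gave 1 stretched and 1 shortened piece, assigned at random, so that stretched pieces were compared with shortened pieces of the same animal. The labels give no genetic change, no force and no duration, and all 4 groups were manipulated, so no resting tissue served as a control.

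CC chemokines take their name from adjacent cysteines near the start of the protein. They bind G protein-coupled receptors on leukocytes: Ccl2 and Ccl7 bind Ccr2 on monocytes, Ccl3 and Ccl5 bind Ccr1 on monocytes and macrophages, and Ccl11 (eotaxin) binds Ccr3 on eosinophils. Ccl6 and Ccl9 are rodent chemokines made by macrophages and other myeloid cells, with Ccr1 as a receptor. In connective tissue, fibroblasts and macrophages are both known sources. Many of these genes are switched on by inflammatory cytokines through the transcription factor NF-kB.

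Values were log2 signals of 22626 probes. Ex vivo the array medians were 6.85 to 6.9 and in vivo 7.28 to 7.41, so the settings looked normalized separately, and probes ex vivo differed from in vivo by a median of -0.38 in either state. Differences between the settings are therefore given relative to the median of all probes. Setting, array processing and normalization cannot be told apart. The mean of 11 fibroblast markers was 11.03 to 11.56 ex vivo and 12.29 to 12.82 in vivo. The mean of 12 skeletal muscle markers varied widely between pieces, from 4.99 to 11.8 ex vivo and from 4.95 to 12.6 in vivo. RNA quality, read from how far the 3' control probe of Gapdh exceeded the 5' one, was 0.050 to 0.91 on the log2 scale ex vivo, 0.11 to 0.27 in vivo in animals 1 to 3 and 0.87 to 3.61 in vivo in animals 4 to 7. In bulk tissue, fewer cells of a type and less RNA per cell cannot be told apart.

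All 9 genes lie on chromosome 11 in 2 groups. The first runs Ccl2, Ccl7, Ccl11, Ccl12, Ccl8, and the second runs Ccl5, Ccl9, Ccl6, Ccl3, Ccl4, with no other protein-coding gene inside either run. RefSeq promoter sequence (GRCm38.p6) was at hand for 4 of the 9 genes, namely Ccl3, which had the largest difference between settings, Ccl9 and Ccl6, which were lower ex vivo, and Ccl8, which differed little. The 250 bases before each gene's start are shown 5′ to 3′ on the gene's strand, with matches to 4 motifs on either strand in capitals.
Ccl3 (chr11:83649379-83649628, minus strand): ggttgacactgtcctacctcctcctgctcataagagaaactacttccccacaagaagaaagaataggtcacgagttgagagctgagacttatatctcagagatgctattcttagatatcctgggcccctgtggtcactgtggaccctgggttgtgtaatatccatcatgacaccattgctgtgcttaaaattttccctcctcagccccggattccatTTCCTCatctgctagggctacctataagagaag
Ccl9 (chr11:83578637-83578886, minus strand): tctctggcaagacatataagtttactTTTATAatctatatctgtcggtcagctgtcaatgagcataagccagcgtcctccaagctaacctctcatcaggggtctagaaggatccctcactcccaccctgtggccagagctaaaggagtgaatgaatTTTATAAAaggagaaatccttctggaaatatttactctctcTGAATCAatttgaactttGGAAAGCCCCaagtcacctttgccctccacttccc
Ccl6 (chr11:83593088-83593337, minus strand): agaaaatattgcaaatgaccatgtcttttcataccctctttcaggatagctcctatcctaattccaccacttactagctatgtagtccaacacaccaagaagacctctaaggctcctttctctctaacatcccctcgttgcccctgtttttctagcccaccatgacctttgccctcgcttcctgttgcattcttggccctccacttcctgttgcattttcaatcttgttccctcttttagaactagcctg
Ccl8 (chr11:82114935-82115184, plus strand): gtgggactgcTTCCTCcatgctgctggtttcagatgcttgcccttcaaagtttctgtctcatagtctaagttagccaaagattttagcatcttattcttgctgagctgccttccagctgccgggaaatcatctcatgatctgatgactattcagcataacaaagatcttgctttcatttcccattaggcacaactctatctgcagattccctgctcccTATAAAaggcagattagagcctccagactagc
The motifs were the kappa B motif of NF-kB, the AP-1 motif TGANTCA, the TATA box TATAAA and the PU.1 core GAGGAA. Among these 4 windows the kappa B motif matched only that of Ccl9, 35 to 26 bases before the start, where AP-1 matched at 53 to 47 bases. Of all 32851 RefSeq windows of the same length, 3.90% held the kappa B motif and 6.75% the AP-1 motif. TATA matched in Ccl8 at 32 to 27 bases and in Ccl9 at 224 to 219, 94 to 89 and 92 to 87 bases before the start, the last pair on opposite strands and overlapping (12.4% of all windows). PU.1 matched in Ccl3 at 33 to 28 and in Ccl8 at 240 to 235 bases before the start (23.3% of windows), and none of the 4 motifs matched in the Ccl6 window.

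The largest differences were between tissue held ex vivo and tissue in vivo. Ccl2, Ccl3, Ccl4, Ccl5 and Ccl7 were much higher ex vivo in both stretched and shortened tissue, and Ccl6 and Ccl9 were lower. Ccl11 differed by 1.19 in stretched and 0.51 in shortened tissue, and Ccl8 by 0.44 and 0.27, both relative to the median of all probes. With an adjusted p under 0.05 in limma, 8 of 9 genes passed in shortened tissue, 6 higher and 2 lower ex vivo, where 67.3% of all probes passed, 33.5% higher and 33.9% lower. In stretched tissue 9 of 9 passed, 7 higher and 2 lower, against 64.6% of all probes, 32.6% higher and 32% lower. The median difference over the 9 genes was 2.03 in stretched and 2.28 in shortened tissue, where the median of all probes was set to 0. With so many probes called, the count says little about these genes, and the size of the differences and their rank among probes carry the description. How many of all probes had no overlap between the settings was not counted, so a lack of overlap is description only. Stretched and shortened pieces came from the same animals, so the comparisons in the 2 states are not independent.

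**Figure D1:**
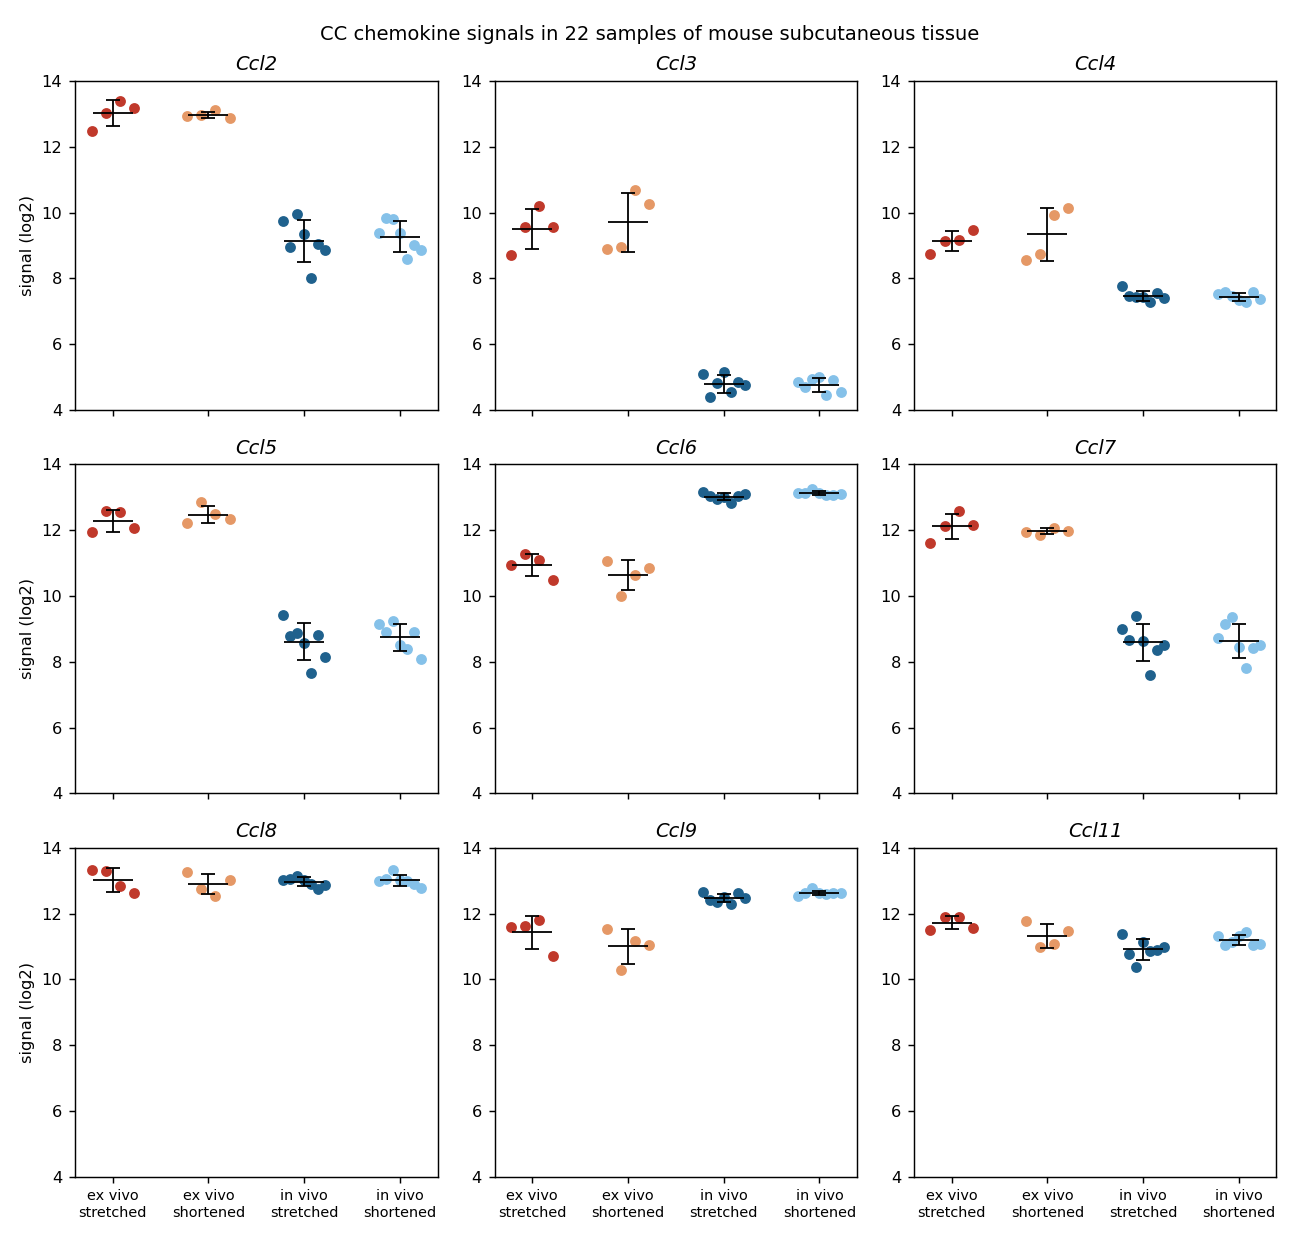
Signals (log2) of the 9 CC chemokine genes in every sample, with group mean and SD in black (n = 4 per ex vivo group, n = 7 per in vivo group). For Ccl2, Ccl3, Ccl4, Ccl5 and Ccl7 every ex vivo sample lies above every in vivo sample, and for Ccl6 and Ccl9 every ex vivo sample lies below. The share of all probes that separate in this way was not counted.

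Ccl2 and Ccl7 are neighbouring genes for monocyte attractants. Ccl2 signals ex vivo were 12.49, 13.02, 13.40 and 13.18 in stretched and 12.93, 12.96, 13.11 and 12.88 in shortened pieces of animals 1 to 4. In vivo they had a lowest, median and highest value of 8.02, 9.04 and 9.95 in stretched and 8.60, 9.38 and 9.82 in shortened pieces. Every ex vivo sample was above every in vivo sample. The difference, ex vivo minus in vivo, was 4.27 ± 0.31 (SE) in stretched tissue (adjusted p = 1.71e-07) and 4.09 ± 0.21 in shortened tissue, a 17.0-fold difference (adjusted p = 6.35e-09). It ranked at 44 and 62 from the highest among 22626 probes.

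Ccl7 behaved much like its neighbour. Its signals ex vivo were 11.62, 12.11, 12.57 and 12.14 in stretched and 11.96, 11.86, 12.07 and 11.98 in shortened pieces. In vivo the lowest, median and highest values were 7.59, 8.64 and 9.39 in stretched and 7.81, 8.51 and 9.35 in shortened pieces, again without overlap. The difference was 3.91 ± 0.28 in stretched tissue (adjusted p = 1.59e-07) and 3.72 ± 0.23 in shortened tissue (adjusted p = 3.09e-08), or 15.0-fold and 13.2-fold. Shortened pieces ex vivo varied little for both genes, with an SD of 0.10 for Ccl2 and 0.09 for Ccl7 (n = 4).

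Ccl3 (macrophage inflammatory protein 1-alpha) had the largest difference of the 9. Its signals ex vivo were 8.71, 9.55, 10.20 and 9.56 in stretched and 8.90, 8.96, 10.68 and 10.25 in shortened pieces. In vivo they were low throughout, with a lowest, median and highest value of 4.38, 4.82 and 5.15 in stretched and 4.45, 4.86 and 5.01 in shortened pieces. The difference was 5.09 ± 0.24 in stretched tissue (adjusted p = 4.30e-09) and 5.31 ± 0.30 in shortened tissue (adjusted p = 1.46e-08), or 34.2-fold and 39.7-fold, ranks 23 and 25 from the highest. Between 17.1% and 25.7% of an in vivo array's probes were dimmer than Ccl3. Whether Ccl3 was above background there is not given in the sources used here.

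Its neighbour Ccl4, which encodes the related beta form and attracts T cells and monocytes, differed less. Signals ex vivo were 8.73, 9.13, 9.16 and 9.49 in stretched and 8.57, 8.74, 9.92 and 10.13 in shortened pieces. The in vivo values spanned 7.27 to 7.76 in stretched pieces (median 7.43) and 7.27 to 7.59 in shortened pieces (median 7.46), below all ex vivo values. The difference was 2.03 ± 0.14 in stretched tissue (adjusted p = 9.28e-08) and 2.28 ± 0.26 in shortened tissue (adjusted p = 7.54e-06). For both Ccl3 and Ccl4 the shortened pieces ex vivo formed a low pair, animals 1 and 2, and a high pair, animals 3 and 4.

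Ccl5, also called RANTES, is a chemokine of T cells and macrophages. It reached 11.94, 12.58, 12.56 and 12.08 in stretched and 12.22, 12.84, 12.48 and 12.35 in shortened pieces ex vivo. In vivo its lowest, median and highest values were 7.66, 8.79 and 9.42 in stretched and 8.08, 8.89 and 9.23 in shortened pieces. No in vivo sample reached the lowest ex vivo one. The difference was 4.07 ± 0.28 in stretched tissue (adjusted p = 9.85e-08) and 4.12 ± 0.21 in shortened tissue (adjusted p = 5.22e-09), or 16.7-fold and 17.4-fold.

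**Figure D2:**
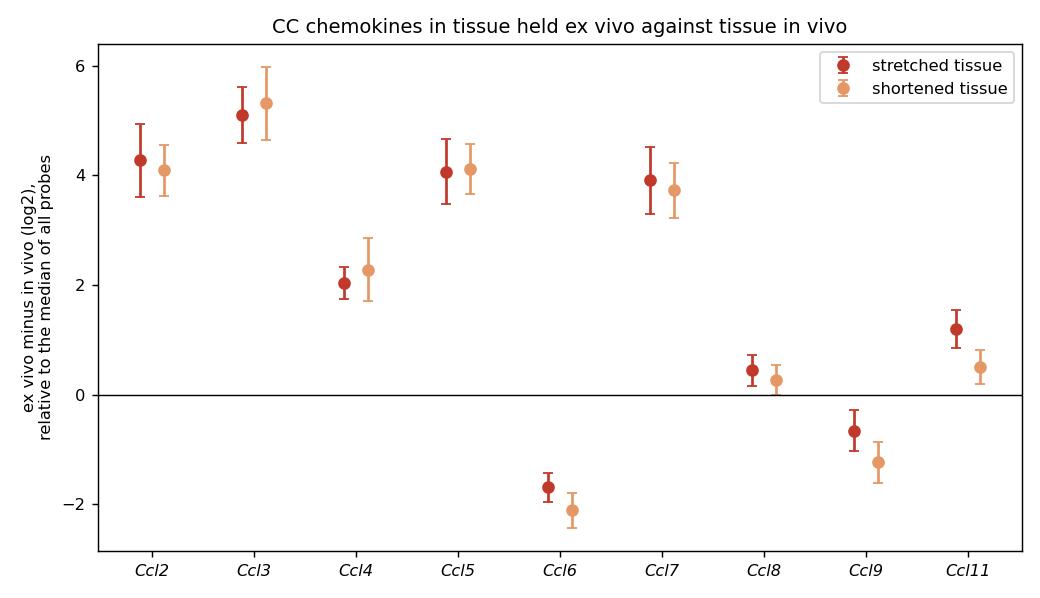
Differences of the 9 genes between tissue ex vivo and tissue in vivo (log2, relative to the median of all probes), in stretched and in shortened tissue, with 95% confidence intervals of the limma fit. Ccl3 stands highest at 5.09 and 5.31, and Ccl6 lowest at -1.69 and -2.11.

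Ccl6 and Ccl9, neighbours in the second run, were lower ex vivo. Ccl6 signals were 10.95, 11.27, 11.08 and 10.48 in stretched and 11.06, 10.002, 10.65 and 10.84 in shortened pieces ex vivo. In vivo they lay within 12.83 to 13.16 in stretched pieces (median 13.04) and 13.08 to 13.25 in shortened pieces (median 13.13). Ccl6 was thus far more uniform in vivo, with an SD of 0.45 in shortened pieces ex vivo (n = 4) against 0.06 in vivo (n = 7). The difference was -1.69 ± 0.12 in stretched tissue (adjusted p = 1.71e-07) and -2.11 ± 0.15 in shortened tissue (adjusted p = 8.71e-08). Its second probe gave larger differences, -2.31 ± 0.11 and -2.71 ± 0.18.

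Ccl9 signals ex vivo were 11.59, 11.61, 11.81 and 10.70 in stretched and 11.53, 10.28, 11.18 and 11.03 in shortened pieces. In vivo they spanned 12.30 to 12.65 in stretched pieces (median 12.47) and 12.53 to 12.77 in shortened pieces (median 12.62), all above the ex vivo values. The difference was -0.66 ± 0.17 in stretched tissue (adjusted p = 0.00450) and -1.24 ± 0.17 in shortened tissue (adjusted p = 3.65e-05). The second probe of Ccl9 gave -1.06 ± 0.26 and -1.55 ± 0.23. Against in vivo animals 1 to 3 alone, an alternative added after seeing the data, the difference in stretched tissue was -0.65 with an adjusted p of 0.0512.

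Macrophage markers were lower ex vivo as well. Of 11 markers 9 were lower ex vivo in each state, with a median difference of -2.78 in stretched and -2.71 in shortened tissue. The scavenger receptor Cd163 differed by -4.69 ± 0.17 in shortened tissue, the mannose receptor Mrc1 by -3.82 ± 0.13, and the lysozyme gene Lyz2 by -2.71 ± 0.17. Fcgr1, an Fc receptor, was the 1 macrophage marker higher ex vivo (1.38 ± 0.21 in shortened tissue), and Cd68 did not pass in either state (0.46 ± 0.19 in stretched and 0.19 ± 0.16 in shortened tissue). These 5 were named after their values were seen. The mean of the macrophage list was 8.33 to 9.66 in stretched and 8.84 to 9.84 in shortened pieces ex vivo, against 11.71 to 12.18 in stretched and 11.83 to 12.24 in shortened pieces in vivo. Markers of several other cell types moved as well. Of 6 monocyte markers 5 were lower and 1 higher ex vivo in each state, with medians of -1.18 in stretched and -0.96 in shortened tissue. Of 11 fibroblast markers 8 were lower and 1 higher in each state (medians -0.82 and -0.81). Of 7 dendritic cell markers 4 were lower in each state, with 2 higher in stretched and 1 in shortened tissue (medians -1.94 and -2.02). Of 6 adipocyte markers 4 were lower and 0 higher in each state (medians -2.46 and -2.01). Of 11 lymphocyte markers 6 were lower in each state, with 1 higher in stretched and 2 in shortened tissue. Of 9 neutrophil markers 4 were higher and 3 lower in stretched tissue, and 5 higher and 2 lower in shortened tissue. These marker counts stand beside 32.6% of all probes higher and 32% lower in stretched tissue, and 33.5% and 33.9% in shortened tissue. The part of these cell markers in the chemokine differences was not tested.

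Ccl8 and Ccl11 share the first run with Ccl2 and Ccl7. Ccl8, the less different of the pair, attracts monocytes and, in mice, cells that carry Ccr8. Its signals ex vivo were 13.32, 13.31, 12.82 and 12.62 in stretched and 13.25, 12.76, 12.54 and 13.03 in shortened pieces. In vivo they spanned 12.74 to 13.14 in stretched pieces (median 13.01) and 12.78 to 13.32 in shortened pieces (median 13.00), so the groups overlapped. The difference relative to all probes was 0.44 ± 0.13 in stretched tissue (adjusted p = 0.0107) and 0.27 ± 0.12 in shortened tissue (adjusted p = 0.0742). Without the shift to the median of all probes it was 0.06 (adjusted p = 0.716) and -0.12 (adjusted p = 0.416), so its direction rests on that scaling.

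Ccl11, the eosinophil attractant, had signals ex vivo of 11.51, 11.90, 11.89 and 11.58 in stretched and 11.76, 10.98, 11.06 and 11.48 in shortened pieces. In vivo they spanned 10.38 to 11.38 in stretched pieces (median 10.88) and 11.04 to 11.45 in shortened pieces (median 11.12). Stretched pieces did not overlap between the settings, and shortened pieces did. The difference was 1.19 ± 0.16 in stretched tissue (adjusted p = 3.30e-05) and 0.51 ± 0.14 in shortened tissue (adjusted p = 0.00663). In shortened tissue it was 0.12 with an adjusted p of 0.443 when not taken relative to the median of all probes.

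Most receptors of these chemokines were lower ex vivo. Of 14 measured CC receptor genes, atypical receptors included, 4 were higher and 10 lower ex vivo in stretched tissue, and 3 were higher and 10 lower in shortened tissue. Over all probes 32.6% were higher and 32% lower in stretched tissue, and 33.5% higher and 33.9% lower in shortened tissue. The median difference of the receptors was -0.61 in stretched and -0.51 in shortened tissue, where the median of all probes was set to 0. Ccr2, the receptor of Ccl2 and Ccl7, was 5.61 to 6.65 in stretched and 5.51 to 6.52 in shortened pieces ex vivo, against 9.71 to 10.72 and 9.74 to 10.39 in vivo. Its difference was -3.47 ± 0.21 in stretched tissue (adjusted p = 4.46e-08) and -3.57 ± 0.18 in shortened tissue (adjusted p = 5.77e-09). So the receptor was lower ex vivo in the same samples in which its ligands were higher.

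Ccr1, a receptor of Ccl3, Ccl5, Ccl6 and Ccl9, was lower by a similar pattern, with differences of -1.65 ± 0.25 in stretched and -1.88 ± 0.23 in shortened tissue. Ccr3, the receptor of Ccl11, averaged 3.71 in stretched tissue both ex vivo and in vivo, so its difference of 0.38 ± 0.08 there is the shift to the median of all probes. Through that shift alone Ccr3 is 1 of the 4 receptors counted as higher in stretched tissue. In shortened tissue it differed by 0.15 ± 0.14 (adjusted p = 0.374). Both are given as receptors of the genes described. Ccrl2, an atypical receptor of activated leukocytes, was higher by 2.48 ± 0.17 in stretched and 3.19 ± 0.23 in shortened tissue. Ccr7, which guides dendritic and T cells to lymph nodes, was higher by 2.39 ± 0.18 and 2.19 ± 0.17.

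Among 9 other CC chemokine genes with a probe of their own, 6 were higher and 2 lower ex vivo in each state, with medians of 0.65 in stretched and 0.86 in shortened tissue. Ccl28, 1 of the 6, averaged 5.98 ex vivo and 5.97 in vivo in stretched tissue, and 6.06 and 5.95 in shortened tissue. Most of its difference is thus the shift to the median of all probes. Of all probes, 32.6% were higher and 32% lower in stretched tissue, and 33.5% and 33.9% in shortened tissue. Ccl22, a chemokine of macrophages and dendritic cells that binds Ccr4, differed by 2.33 ± 0.14 and 2.16 ± 0.14. Ccl1, a ligand of Ccr8, differed by 1.37 ± 0.13 and 1.47 ± 0.11, with dim in vivo means of 4.48 in stretched and 4.37 in shortened tissue. Ccl24, a further eotaxin, was lower by a difference of -1.94 ± 0.19 in stretched and -2.30 ± 0.16 in shortened tissue. Ccl12, which lies between Ccl11 and Ccl8 and is a mouse ligand of Ccr2, differed by 1.82 ± 0.35 and 1.38 ± 0.29. In stretched tissue the eotaxin genes were thus found on both sides, Ccl11 higher and Ccl24 lower ex vivo.

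The genes of inducing cytokines, their receptors and NF-kB factors were mostly higher ex vivo. Of 22 measured genes 17 were higher and 2 lower in stretched tissue, and 15 were higher and 2 lower in shortened tissue, with medians of 1.33 and 1.05. These counts stand beside 32.6% of all probes higher and 32% lower in stretched tissue, and 33.5% and 33.9% in shortened tissue. In either state, not every gene counted as higher had a higher mean ex vivo before the shift to the median of all probes. In stretched tissue Tnfrsf1a averaged 11.43 ex vivo and 11.63 in vivo, and Rela 10.43 and 10.66. The differences of these 2 genes, and of Stat6 and Il13, were positive there through the shift alone. Il6, an inflammatory cytokine, was 11.27 to 12.24 in stretched and 11.43 to 12.50 in shortened pieces ex vivo, against 4.21 to 6.80 and 4.27 to 6.44 in vivo. Its difference was 6.97 ± 0.41 in stretched and 7.24 ± 0.37 in shortened tissue. The receptor chains for interleukin 4 and 13, Il4ra (2.04 ± 0.11 and 1.69 ± 0.10) and Il13ra1 (2.31 ± 0.21 and 2.15 ± 0.12), were higher as well. They belong to the pathway known to induce Ccl11 in fibroblasts. Other listed genes of that pathway differed less in mean signal before the shift to the median of all probes. Stat6 averaged 10.17 ex vivo and 10.39 in vivo in stretched tissue, and 10.14 and 10.52 in shortened tissue. For Il13 these means were 4.36 and 4.37, and 4.23 and 4.35. Il4 itself was 1 of the 2 genes that were lower (-0.90 ± 0.12 and -0.82 ± 0.11), with Ifngr1, a receptor chain for interferon gamma (-0.85 ± 0.09 and -1.11 ± 0.07). These last 2 were named because they make up the count. Il4 was dim in every group, with means of 3.22 in stretched and 3.33 in shortened tissue ex vivo and 4.50 and 4.53 in vivo. Whether it was above background is not given in the sources used here.

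**Figure D3:**
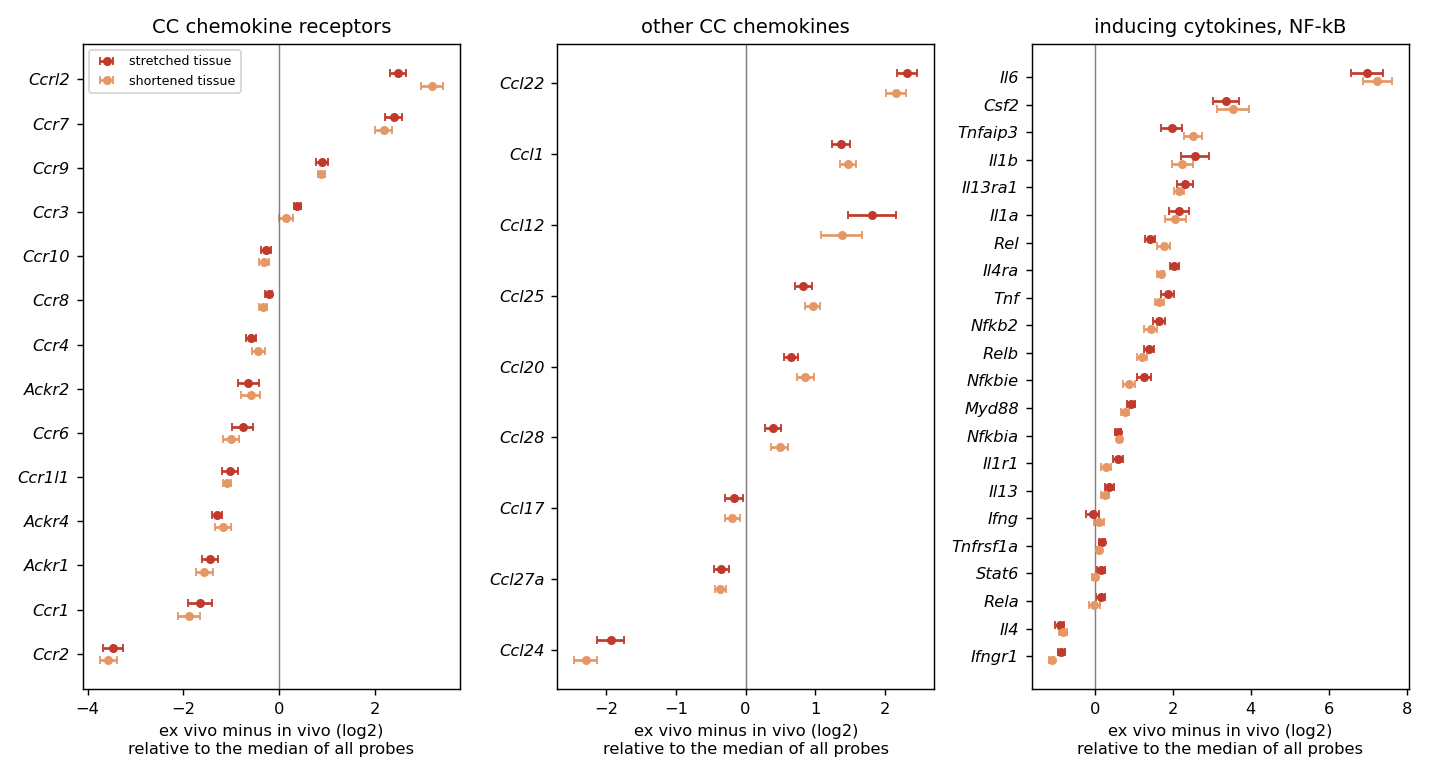
Differences between tissue ex vivo and in vivo (log2, relative to the median of all probes, bars are SE) for CC chemokine receptors, other CC chemokines, and inducing cytokines with NF-kB genes, in stretched and shortened tissue. Ccr2 lies lowest of the receptors at -3.47 and -3.57, and Il6 highest of the inducers at 6.97 and 7.24.

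Within a setting, stretch made no difference that passed the test. In vivo limma called 0 of the 9 genes and 0% of 22626 probes, while 4373 probes, 3 of the genes among them, had an unadjusted p under 0.05. The median over the 9 genes was -0.11, against -0.02 over all probes. The 3 were Ccl11, Ccl9 and Ccl6, each with a lower mean in stretched tissue. Ccl11 averaged 10.91 ± 0.31 in stretched and 11.20 ± 0.16 in shortened pieces (SD, n = 7 each), and was lower in stretched pieces of 6 of 7 animals. Its difference was -0.29 ± 0.09 (SE, 95% interval -0.49 to -0.09, adjusted p = 0.172), with -0.74 in animal 3 and -0.60 in animal 5 as the extremes and 0.08 in animal 1.

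Ccl9 differed by -0.16 ± 0.06 (adjusted p = 0.20) and Ccl6 by -0.11 ± 0.04 (adjusted p = 0.224), each with a lower value in stretched pieces of 5 of 7 animals. All 11 macrophage markers and all 11 fibroblast markers also had negative differences in vivo, with medians of -0.15 and -0.12, while all 12 muscle markers had positive ones with a median of 2.23. All 6 adipocyte markers (median 0.50) and 6 of 7 endothelial markers (median 0.38) were positive too. None of these passed, and the mean of the muscle markers was higher in the stretched piece of 6 of 7 animals. With muscle content as a covariate the Ccl11 difference was -0.17 (adjusted p = 0.777), Ccl9 -0.12 and Ccl6 -0.07. The part of muscle content in these differences was not otherwise tested, and that of adipocyte and endothelial markers was not tested.

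The genes that were high ex vivo varied between animals in vivo without a common direction under stretch. Ccl2 differed by -0.13 ± 0.13 (95% interval -0.42 to 0.16), with pair values from -0.86 in animal 2 to 0.36 in animal 1. Ccl5 differed by -0.13 ± 0.10 and Ccl7 by -0.04 ± 0.08. Ccl3 and Ccl4 differed by 0.02 ± 0.08 and 0.03 ± 0.06, the latter with a 95% interval of -0.09 to 0.15. Ccl8 differed by -0.05 ± 0.04 and was lower in stretched pieces of 5 of 7 animals.

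**Figure D4:**
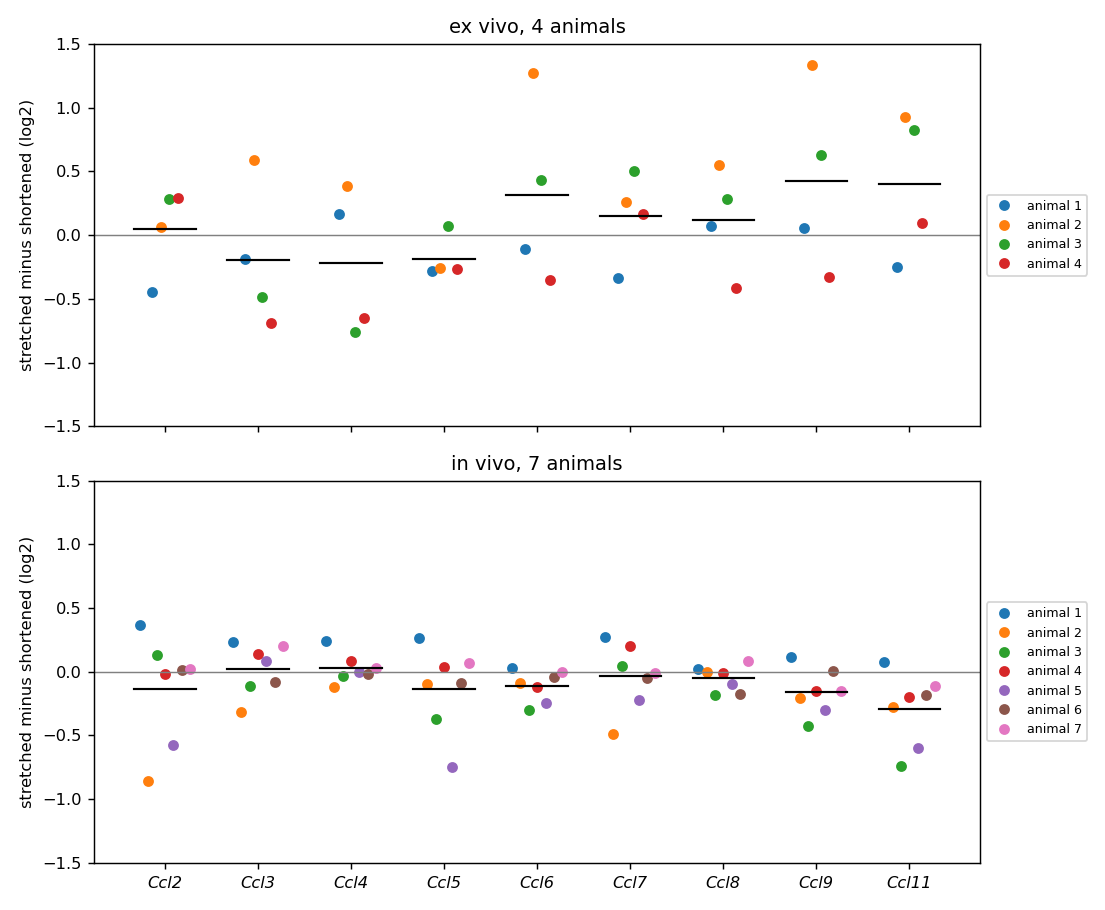
Stretched minus shortened signal (log2) of each gene in each animal, ex vivo (4 animals) above and in vivo (7 animals) below, with the mean as a black line. Pair values for Ccl11 run from -0.25 to 0.93 ex vivo and from -0.74 to 0.08 in vivo.

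Ex vivo, limma again called 0 of the 9 genes and 0% of all probes, with 2508 probes but 0 of the genes at an unadjusted p under 0.05. The median over the 9 genes was 0.12, against 0.00 over all probes. Ccl9 differed by 0.42 ± 0.25 (95% interval -0.18 to 1.02) and Ccl11 by 0.40 ± 0.20, both higher in stretched pieces of 3 of 4 animals. Their pair values in animals 1 to 4 were 0.05, 1.33, 0.63 and -0.33 for Ccl9, and -0.25, 0.93, 0.82 and 0.09 for Ccl11. For Ccl6 they were -0.11, 1.27, 0.43 and -0.35, so the means of all 3 genes leaned on animal 2. Without animal 2 the difference was -0.01 for Ccl6, against 0.31 with all 4, and 0.12 for Ccl9 and 0.22 for Ccl11.

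Ccl4 divided the ex vivo animals. It had pair values of 0.17, 0.38, -0.76 and -0.65 in animals 1 to 4, with a mean of -0.22 ± 0.58 (SD of 4 pairs), with positive values in animals 1 and 2 and negative ones in animals 3 and 4. The Ccl3 pair values were -0.19, 0.59, -0.48 and -0.69, of which only that of animal 2 was positive. Animals 3 and 4 were also those whose stretched pieces held most muscle, with a muscle marker mean of 10.5 and 11.8 in stretched against 5.21 and 6.23 in shortened pieces. In animals 1 and 2 that mean was 4.99 and 5.35 in stretched against 5.56 and 5.18 in shortened pieces. Without animals 3 and 4 the difference was 0.28 for Ccl4 and 0.20 for Ccl3, the opposite direction, with neither called and that of Ccl3 resting on animal 2. Ccl5 differed by -0.18 ± 0.08 (adjusted p = 0.452) and was lower in stretched pieces of 3 of 4 animals. Ccl2, Ccl7 and Ccl8 differed by 0.05 ± 0.13, 0.15 ± 0.13 and 0.12 ± 0.15.

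The stretch effect was compared between settings as ex vivo minus in vivo in a fit of all 22 samples. None of the 9 genes passed, where 0.177% of all probes did, and 2 of the 9 had an unadjusted p under 0.05. Ccl11 came closest, with a stretch effect of 0.40 ex vivo and -0.29 in vivo, a difference of 0.69 ± 0.22 (95% interval 0.22 to 1.15, adjusted p = 0.161). Without ex vivo animal 1 that difference was 0.90 and passed (adjusted p = 0.0346). Ccl9 had 0.42 ex vivo and -0.16 in vivo, a difference of 0.58 ± 0.24 (adjusted p = 0.267). For the other 7 genes the difference lay between -0.24 and 0.42, with adjusted p from 0.405 to 0.911.

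The lists of the same pathway showed 0 calls under stretch in either setting. In vivo the receptor with the smallest p was Ackr2, a decoy that degrades inflammatory CC chemokines, which was 8.72 ± 0.44 in stretched and 9.13 ± 0.41 in shortened pieces (SD, n = 7 each). Its difference of -0.41 ± 0.11 had an adjusted p of 0.172, and ex vivo it was -0.45 ± 0.15 (adjusted p = 0.394). Ccrl2 differed by -0.58 ± 0.18 ex vivo (adjusted p = 0.385). Among other CC chemokines Ccl24 had the smallest p in vivo, with -0.21 ± 0.06 (adjusted p = 0.172).

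Within groups, 3 pairs of neighbouring genes varied together over the 22 samples. After the mean of each of the 4 groups was subtracted, Ccl2 and Ccl7 correlated with Pearson r = 0.94 over the 22 samples, Ccl6 and Ccl9 with r = 0.92, and Ccl3 and Ccl4 with r = 0.81. Over the 8 ex vivo and the 14 in vivo samples apart, r was 0.95 and 0.94 for Ccl2 with Ccl7, 0.93 and 0.79 for Ccl6 with Ccl9, and 0.86 and 0.48 for Ccl3 with Ccl4. Over all 22 samples these were the 3 highest of 36 pairs, and each pair is adjacent on the chromosome. Over the 14 in vivo samples that ranking held for Ccl2 with Ccl7 only. There Ccl6 with Ccl9 and Ccl3 with Ccl4 both lay below pairs that are not adjacent. Among those pairs were Ccl4 with Ccl5 (r = 0.82) and Ccl2 with Ccl5 (r = 0.80). Adjacency alone did not go with a high correlation, since Ccl7 and Ccl11 had r = -0.14, Ccl5 and Ccl9 r = 0.07, and Ccl6 and Ccl3 r = 0.21. The points share arrays, animals and tissue makeup, and the values are a description only. Ccl5 varied with Ccl2 (r = 0.76) and Ccl7 (r = 0.69), although it lies in the other run.

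**Figure D5:**
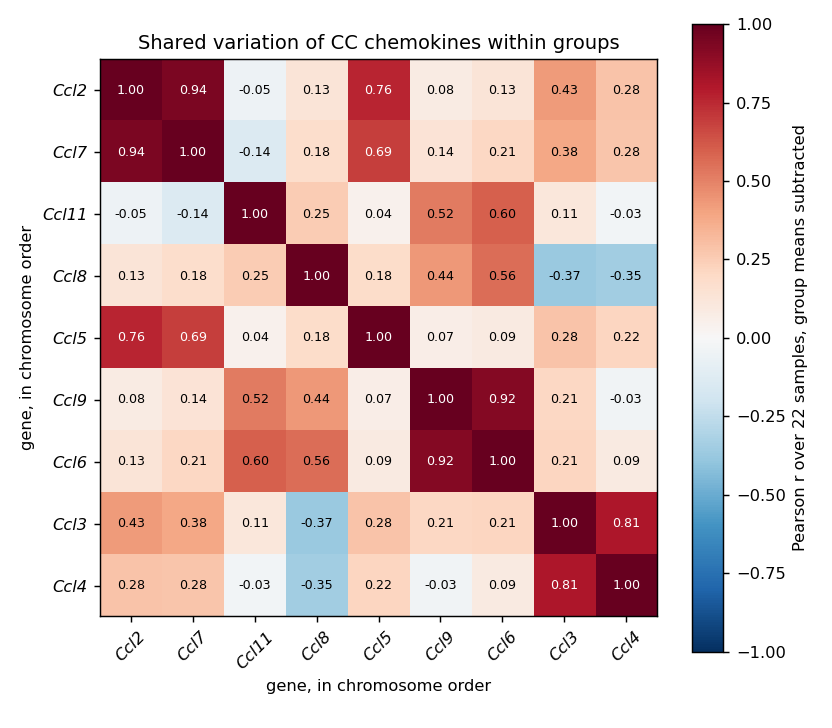
Pearson correlation between the 9 genes over 22 samples after subtraction of the 4 group means, in chromosome order. The cells of Ccl2 with Ccl7 (0.94), Ccl9 with Ccl6 (0.92) and Ccl3 with Ccl4 (0.81) are the highest off the diagonal.

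Other genes of the array that varied most like a chemokine within groups differed from pair to pair. For Ccl9 they were Tyrobp (r = 0.94), the adaptor of myeloid receptors, the leukocyte gene Ptprc (r = 0.93) and Dck (r = 0.93). For Ccl6 they were Lyz2 (r = 0.89), Sirpa (r = 0.87), a receptor of myeloid cells, and Lyz1 (r = 0.87). Ccl2 and Ccl7 shared Cd44 (r = 0.83 and 0.82), the hyaluronan receptor, and Trbv1 (r = 0.79 and 0.81). Irgm1, an interferon-induced GTPase, completed the list of Ccl2 (r = 0.77), and Ctps that of Ccl7 (r = 0.82). Ccl5 had Dgkq (r = 0.85), Rtp4 (r = 0.84), which is induced by interferon, and Irgm1 (r = 0.83).

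Ccl3 and Ccl4 shared Tph1 (r = 0.80 and 0.78), which encodes an enzyme of serotonin synthesis. The other genes most like Ccl3 were Tgm1 (r = 0.82) and Ccl22 (r = 0.79), and for Ccl4 Samd11 (r = 0.80) and Il4i1 (r = 0.78). For Ccl11 they were Rnase4 (r = 0.93), AI413582 (r = 0.86) and Sft2d1 (r = 0.86). Ccl8 had Cd300a (r = 0.87), Vegfd (r = 0.85) and Cdk20 (r = 0.84). All these values are the highest of 12384 genes over the same 22 samples, and such a search finds high values by selection.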

How the data were processed

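RNA was labelled as biotin cRNA and measured on arrays. The authors deposited log2 signals made with RMA and the affy package, per the submitters' processing notes, with no versions stated. Quantile normalization makes each sample's distribution alike, and the 2 settings kept different ones. Of 22690 probes 64 control probes were left out. Symbols followed the supplied probe table (20380 probes with 1 symbol, 691 with several, 1555 with none), updated through gene IDs.

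limma 3.58.1 (R 4.3.3) was run with lmFit and trended eBayes. Over 22626 probes p-values were adjusted by Benjamini-Hochberg, and 0.05 was the threshold. Stretch was tested with the animal as a block, since the series design states a within-animal comparison. The 2 pieces of an animal deviated together from their group means (r of 0.109 to 0.284 ex vivo, 0.385 to 0.867 in vivo). Ex vivo and in vivo tissue were compared without a block. The sample titles give replicate numbers, and same-numbered pieces of a setting were taken as the same animal because of that design. The number of arrays limits precision. The fits were tested on simulated data.

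Of 158 listed genes 143 were measured. Named were the 9 genes, up to 3 genes of smallest p per list and comparison, and the 3 genes most like each member, with exceptions marked. Members and lists were chosen with earlier results of these data known. Alternatives changed 1 choice at a time.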

Additional observations from a re-analysis of the deposited data

Results flagged for a closer look

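Ccl5 in ex vivo animal 3 had a stretched minus shortened difference of 0.074, while those of the other 3 animals lay between -0.28 and -0.26, which set this animal apart from the rest. Ccl6 in the shortened piece of in vivo animal 3 was 13.25, above the 13.08 to 13.14 of the other 6 animals. These were 2 of 54 sets of values examined for a sample far from the others, and chance alone sets apart about 1 in 20.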

How the results depend on the processing

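In both comparisons between settings, Ccl2, Ccl3, Ccl4, Ccl5, Ccl6 and Ccl7 kept their direction and their call under all alternatives run, and leaving out each animal in turn gave 8 to 9 genes called in shortened and 9 in stretched tissue. Ccl8 in shortened tissue turned to -0.12 without the shift to the median of all probes. It was called with probes of mean 6 or more (0.34), array weights (0.34), 1 probe per gene (0.36), in vivo animals 4 to 7 only (0.35), or without in vivo animal 3 (0.33) or ex vivo animal 3 (0.38). In stretched tissue Ccl8 lost its call with quantile normalization of all samples (0.31, adjusted p = 0.0567) and against in vivo animals 1 to 3 (0.33, adjusted p = 0.145). For stretch, 0 genes were called under every alternative in either setting, including no replicate block (0 of 9 in vivo, 0 of 9 ex vivo, and 0 for the difference of the stretch effect). The difference of the stretch effect had 0 to 1 called when each animal was left out. Small uncalled differences turned sign, and the cause was not tested. In vivo, muscle content as a covariate gave Ccl2 0.024, Ccl5 0.11 and Ccl7 0.073, and animals 1 to 3 gave Ccl3 -0.063. Leaving out in vivo animals 5 and 6, whose stretched and shortened pieces differed most in muscle markers, gave Ccl7 0.0033. Pairs with high muscle markers in both pieces stayed in. Ex vivo, the covariate gave Ccl2 -0.19, Ccl3 0.15, Ccl4 0.23 and Ccl7 -0.039. Leaving out ex vivo animals 3 and 4 gave -0.19, 0.20, 0.28 and -0.040 in the same order. For the difference of the stretch effect, leaving out these in vivo and ex vivo animals gave Ccl2 -0.12, Ccl3 0.17, Ccl4 0.23 and Ccl7 -0.043. Array weights gave Ccl5 0.0032 there. Leaving out each animal spanned -0.011 to 0.080 for Ccl3, -0.0076 to 0.052 for Ccl4 and -0.087 to 0.039 for Ccl7 in vivo. Ex vivo it spanned -0.032 to 0.21 for Ccl2, -0.0084 to 0.53 for Ccl6 and -0.022 to 0.30 for Ccl8, and -0.15 to 0.014 for Ccl5 in the difference of the stretch effect. With 4 ex vivo pairs, the 95% interval of the stretch effect was -0.18 to 1.02 for Ccl9, the widest of the 9, and -0.37 to 0.00 for Ccl5, the narrowest.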

Other observations

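Ccl2, Ccl5 and Ccl7 had lower means in vivo in animals 4 to 7 than in animals 1 to 3, sets that differ in the Gapdh difference and are not groups of the study. Ccl2 was 8.02 to 9.36 in stretched and 8.60 to 9.38 in shortened pieces of animals 4 to 7, and 8.97 to 9.95 and 9.38 to 9.82 in animals 1 to 3. Ccl7 spanned 7.59 to 8.64 and 7.81 to 8.51 in animals 4 to 7, and 8.66 to 9.39 and 8.72 to 9.35 in animals 1 to 3. Against animals 1 to 3 alone, whose Gapdh difference lies within the ex vivo range, Ccl2 in shortened tissue was 3.69 higher ex vivo, and against animals 4 to 7 alone 4.39 higher, both on the log2 scale. For Ccl7 these values were 3.28 and 4.06, and for Ccl5 3.77 and 4.38. All 6 were called.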
